A study of Homo sapiens with 6 samples.

Results

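The genes described here are 10 components of the canonical Wnt pathway: the secreted antagonist gene DKK1, the co-receptor genes LRP5 and LRP6, the R-spondin receptor gene LGR4, the ubiquitin ligase genes RNF43 and ZNRF3, the scaffold genes AXIN1 and AXIN2, and the transcription factor genes TCF7 and TCF7L2. They were chosen by gene name, with earlier results of these data known. Of the 10 genes, 9 had a row among the 12227 listed genes, and AXIN2 was not analysed here. Transcript levels had been measured by RNA sequencing in PC3, an established human cell line from a bone metastasis of prostate cancer. Per the labels, 3 libraries came from wild-type PC3 cells with a control short hairpin RNA (shRNA) and 3 from PC3 cells in which shRNA targeted VprBP. This protein is the product of DCAF1 and brings substrates to a CRL4 ubiquitin ligase. Both groups were the same cell line grown in DMEM with serum, and no other treatment is labelled. The labels give neither the hairpin sequences nor their delivery, nor whether the numbers 1 to 3 mark hairpins, cultures or repeat libraries. The p-values therefore describe the spread among these libraries only, and that spread may be technical.

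Canonical Wnt signalling controls the stability of beta-catenin. Without a ligand, a destruction complex built on AXIN and APC marks beta-catenin for degradation. When a Wnt protein binds a Frizzled receptor and LRP5 or LRP6, AXIN is drawn to the membrane, beta-catenin accumulates, and it activates genes together with TCF/LEF factors. DKK1 blocks LRP5 and LRP6, and RNF43 and ZNRF3 remove Frizzled receptors from the cell surface unless R-spondin bound to LGR receptors inhibits them. AXIN2, RNF43, ZNRF3, TCF7 and DKK1 are known targets of the pathway in several tissues, so that many of its components act in feedback loops. DKK1 secreted by prostate cancer cells is known for its part in osteolytic bone metastasis.

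The sequences shown are promoter windows of DKK1, the member that rose, and of TCF7 and TCF7L2, whose products bind TCF/LEF sites. TCF7 and TCF7L2 each had more than 1 window, and only the most upstream one of each is printed. Each window is from RefSeq on GRCh38.p14 and holds 250 bases before and 50 after a transcript start, on the plus strand. Capitals mark CTTTGA, a part of the TCF/LEF recognition sequence, searched on both strands, so that it reads TCAAAG on the other strand.
DKK1, chr10:52314031-52314330: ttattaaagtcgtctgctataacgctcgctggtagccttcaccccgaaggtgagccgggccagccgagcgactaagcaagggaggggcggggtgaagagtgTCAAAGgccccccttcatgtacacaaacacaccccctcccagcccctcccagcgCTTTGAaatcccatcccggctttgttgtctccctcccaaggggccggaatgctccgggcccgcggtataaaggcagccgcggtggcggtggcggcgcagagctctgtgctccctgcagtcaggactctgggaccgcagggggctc
TCF7, chr5:134115363-134115662: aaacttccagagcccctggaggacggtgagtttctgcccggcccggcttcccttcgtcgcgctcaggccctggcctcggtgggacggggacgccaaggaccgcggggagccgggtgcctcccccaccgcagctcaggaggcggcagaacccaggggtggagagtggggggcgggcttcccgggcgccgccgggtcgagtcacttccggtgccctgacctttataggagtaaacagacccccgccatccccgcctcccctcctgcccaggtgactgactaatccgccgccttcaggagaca
TCF7L2, chr10:112949997-112950296: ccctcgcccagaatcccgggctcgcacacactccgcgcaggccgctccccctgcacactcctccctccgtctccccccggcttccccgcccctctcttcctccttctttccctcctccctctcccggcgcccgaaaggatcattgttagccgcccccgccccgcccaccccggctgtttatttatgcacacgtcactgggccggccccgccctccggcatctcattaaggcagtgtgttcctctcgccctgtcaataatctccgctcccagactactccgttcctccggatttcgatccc
The DKK1 window had 2 matches, 149 and 95 bases before the start, and a TATAAA sequence 30 bases before it. Among 35116 windows of the same length, 12.9% had at least 1 match to CTTTGA, 1.29% had at least 2, and 7.33% held TATAAA in the orientation printed here. Windows were found for 7 of the members, 11 windows in all, since 3 of these members had more than 1. No match was found in the other windows of members, those of LRP5, AXIN1, LGR4 and RNF43 included. These matches describe letters, not occupied sites.

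The values are a scaled signal, in which gene-level read estimates of each library were multiplied by one factor. The libraries had between 22981893 and 39633869 estimated reads over the listed genes. DCAF1 was at 78.5 to 79.4 in the control libraries and at 38.5 to 41.1 in the knockdown libraries, 50.6% of the control level (log2 fold change -0.97, SE 0.05, limma adjusted p = 3.56e-11). DCAF1 shares 1325 exonic bases with RBM15B on the opposite strand. Knockdown replicate 3 stood apart from its group, since its differences from its 2 partners gave 6.26 and 6.69 times the chi-square that counting noise allows, and the other pairs within groups gave 3.39 to 3.85 times. All 5 epithelial markers (KRT8, KRT18, KRT19, EPCAM and CDH1) were listed, with a summed signal of 2234 to 2263 in control and 2715 to 2770 in knockdown libraries. The members of this list differed: KRT8, KRT18 and EPCAM rose (log2 fold changes 0.71, 0.61 and 0.15), CDH1 fell by 0.083 on the log2 scale, and KRT19 was not called (limma adjusted p = 0.874). Of the markers of other cell types, 1 of 7 for fibroblasts and smooth muscle (COL1A1), 1 of 5 for leukocytes (CD68) and 1 of 4 for endothelium (PECAM1) had a row. The sums were 23.6 to 25.4 against 20.6 to 28.7 for the first and 25.6 to 26.8 against 25.6 to 26.9 for the second. PECAM1 moved with the groups, from 53.0 to 55.2 in control to 22.6 to 24.0 in knockdown libraries, and its part in the results was not tested. In such bulk libraries, fewer cells that express a gene and less RNA per cell cannot be told apart.

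DKK1 rose in knockdown cells, LRP5, LRP6, AXIN1, TCF7 and TCF7L2 fell, and LGR4, RNF43 and ZNRF3 were not called. Calls were made where limma gave an adjusted p under 0.05, with the model fitted on log2(value + 0.5) over all listed genes. By this rule 60.9% of all listed genes were called, 33.0% as higher and 27.8% as lower, so that a call alone is common in these libraries. Of the 9 measured members 6 were called (66.7%), 1 as higher (11.1%) and 5 as lower (55.6%). The median log2 fold change was -0.34 over the 9 members and 0.024 over all listed genes. The groups did not overlap for 7 of the 9 members, compared with 64.8% of all listed genes. Against a fold of 1.2 in place of no change, 4 members were called (DKK1, LRP5, TCF7 and TCF7L2), and 19.1% of all listed genes.

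**Figure D1:**
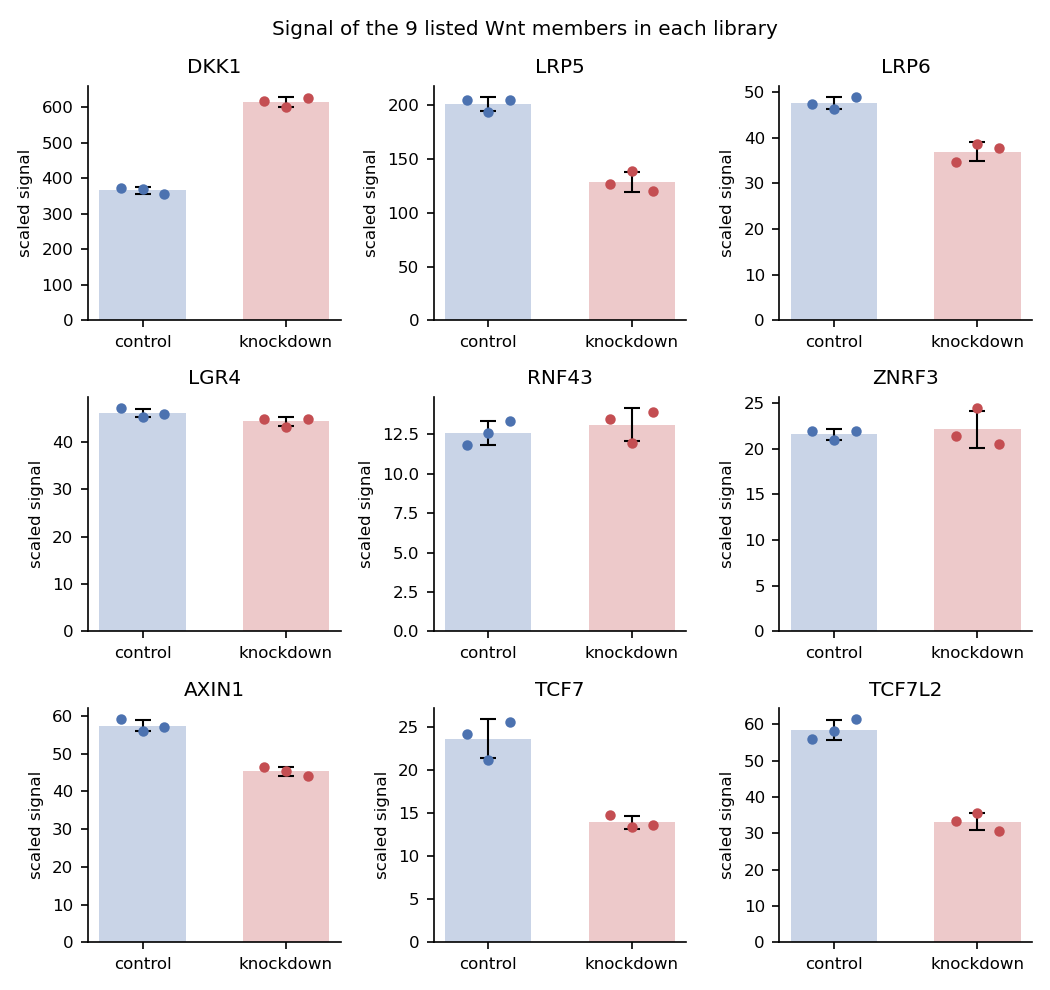
Scaled signal (vertical axis, from 0, a separate scale for each gene) of the 9 listed members in control and knockdown libraries. Points are libraries, bars are group means and error bars are SD (n = 3). DKK1 lies higher in all 3 knockdown libraries, and LRP5, LRP6, AXIN1, TCF7 and TCF7L2 lie lower in all 3.

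DKK1, the secreted antagonist that binds LRP5 and LRP6, was the only one of the 9 measured members that rose. Its gene (ENSG00000107984.10) lies on the plus strand of chromosome 10 from 52314281 to 52318042 (hg38). The signal was 374, 369 and 355 in control replicates 1 to 3 and 617, 601 and 628 in knockdown replicates 1 to 3. Every knockdown library was above every control library, by far more than the spread within either group. The group means were 366 ± 9.46 and 615 ± 13.5 (SD, n = 3 each), a 1.68-fold increase. On the log2 scale the change was 0.75 (SE 0.03; adjusted p = 8.70e-12 in limma), and 3.38% of all listed genes had a larger positive change. At least 8521 estimated reads stood behind each DKK1 value. A stretch of 212 exonic bases overlaps PRKG1-AS1 on the opposite strand.

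The co-receptors that DKK1 blocks both fell. LRP5 (ENSG00000162337.12; plus strand of chromosome 11, 68312591 to 68449275) had a signal of 205, 193 and 204 in the control libraries and 127, 138 and 120 in the knockdown libraries. The lowest control library was well above the highest knockdown library. Means were 201 ± 6.48 and 128 ± 9.32 (SD, n = 3 each), 1.56-fold lower in knockdown cells, with a log2 fold change of -0.64 (SE 0.05, limma adjusted p = 6.74e-09). LRP6 (ENSG00000070018.9; minus strand of chromosome 12, 12116025 to 12267044) had 47.4, 46.3 and 48.9 in control and 34.6, 38.5 and 37.7 in knockdown libraries. These groups did not overlap either, and the difference was smaller, 1.29-fold, from 47.5 ± 1.28 to 36.9 ± 2.06 (SD, n = 3 each). LRP6 had a log2 fold change of -0.36 (SE 0.06; adjusted p = 3.68e-05 in limma), and it was not called against a fold of 1.2 (limma adjusted p = 0.210). The 13 other alternatives, all tests against no change, kept the call, with limma adjusted p from 1.42e-05 to 0.000442.

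A ratio of LRP6 to LRP5 within each library had been planned and was compared as well. Apart from the 0.5 added to each value, this ratio does not depend on how that library was scaled. The log2 ratio of LRP6 to LRP5 was -2.10, -2.05 and -2.05 in the control libraries and -1.86, -1.83 and -1.66 in the knockdown libraries. Knockdown replicate 3 had the highest ratio, and all 3 knockdown libraries were above all controls. The ratio was higher by 0.28 in knockdown cells, or by 0.22 without knockdown replicate 3. An exact two-sided permutation test gave p = 0.1, the smallest that 3 libraries against 3 allow.

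**Figure D2:**
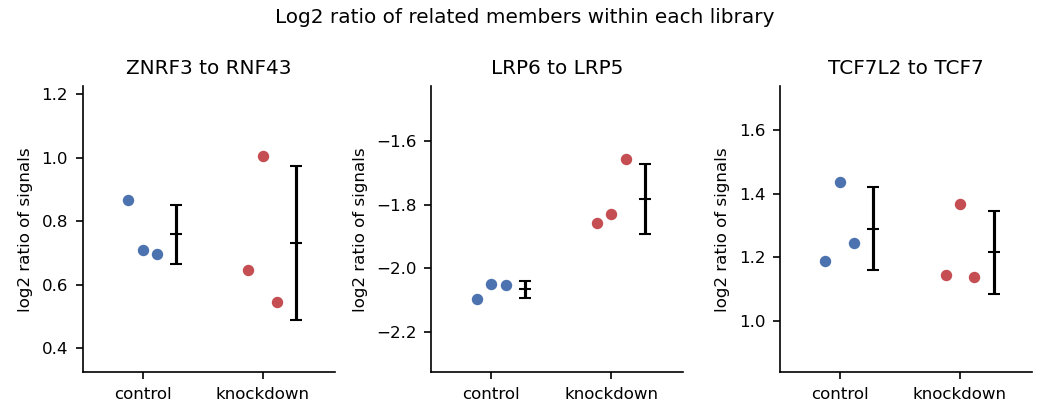
Log2 ratio of the scaled signals of 2 related members within each library (vertical axis, spanning the same width in each panel). Points are libraries, and the short horizontal marks with error bars are group means ± SD (n = 3). The ratio of LRP6 to LRP5 separates the groups, and the ratios of ZNRF3 to RNF43 and of TCF7L2 to TCF7 overlap.

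The surface regulators of Frizzled turnover changed by less than the test could call. LGR4, a receptor for R-spondins (ENSG00000205213.14; minus strand of chromosome 11, 27365961 to 27472790), had 47.1, 45.3 and 46.0 in control and 44.9, 43.2 and 44.9 in knockdown libraries. The knockdown libraries were all slightly below the controls, but the log2 fold change was -0.057 with a 95% interval from -0.16 to 0.049 (limma adjusted p = 0.338). RNF43, a transmembrane ubiquitin ligase (ENSG00000108375.13; minus strand of chromosome 17, 58353676 to 58417595), had 11.8, 12.6 and 13.3 in control and 13.5, 11.9 and 13.9 in knockdown libraries. These groups overlapped, and the log2 fold change was 0.057 with an interval from -0.13 to 0.25 (adjusted p = 0.599, limma). RNF43 rested on 292 to 531 estimated reads per library, the fewest among the members by their lowest library, and it shares 4313 exonic bases with AC004687.2 and 143 with SUPT4H1 on its own strand, so some of its reads may belong to those genes. A further 1220 exonic bases overlap TSPOAP1-AS1 on the opposite strand. ZNRF3, its relative with the same activity (ENSG00000183579.16; plus strand of chromosome 22, 28883572 to 29057488), had 22.0, 20.9 and 21.9 in control and 21.4, 24.5 and 20.6 in knockdown libraries. Knockdown replicate 2 was the highest ZNRF3 value and replicate 3 the lowest, and the log2 fold change was 0.030 with an interval from -0.13 to 0.19 (adjusted p = 0.744, limma). The log2 ratio of ZNRF3 to RNF43 was 0.76 ± 0.094 in control and 0.73 ± 0.24 in knockdown cells (SD, n = 3 each, exact two-sided permutation p = 0.8), and the groups overlapped. With 3 libraries in each group this test cannot give less than 0.1, so it could not settle whether the ratio differed.

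AXIN1, the scaffold of the destruction complex, fell. The gene (ENSG00000103126.15) spans 287440 to 352723 of chromosome 16, on its minus strand. Its signal was 59.1, 56.1 and 57.1 in the control libraries and 46.5, 45.3 and 44.0 in the knockdown libraries. Both groups were tight and well apart, with coefficients of variation of 2.72% and 2.77%. The decrease was 1.27-fold, from 57.4 ± 1.56 to 45.3 ± 1.25 (SD, n = 3 each), with a log2 fold change of -0.34 (SE 0.05, limma adjusted p = 1.75e-05). Against a fold of 1.2 the call was lost (limma adjusted p = 0.270). The 13 other alternatives, all tests against no change, kept it, with limma adjusted p from 7.72e-06 to 0.000333.

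Both TCF factor genes among the members fell. TCF7, which encodes TCF1 (ENSG00000081059.20; plus strand of chromosome 5, 134114681 to 134151865), had 24.2, 21.2 and 25.6 in control and 14.9, 13.5 and 13.7 in knockdown libraries. Control replicate 2 was the lowest control and was still above all knockdown libraries. The means were 23.7 ± 2.27 and 13.99 ± 0.752 (SD, n = 3 each), 1.69-fold lower in knockdown cells, with a log2 fold change of -0.74 (SE 0.08, limma adjusted p = 1.07e-06). TCF7L2, which encodes TCF4 (ENSG00000148737.18; plus strand of chromosome 10, 112950247 to 113167678), had 55.9, 58.3 and 61.4 in control and 33.4, 35.5 and 30.7 in knockdown libraries. The groups were far apart, at 58.5 ± 2.75 and 33.2 ± 2.42 (SD, n = 3 each), a 1.76-fold decrease. On the log2 scale TCF7L2 changed by -0.81 (SE 0.06; adjusted p = 8.28e-09 in limma), and 3.13% of all listed genes had a larger decrease, compared with 3.88% for TCF7. The log2 ratio of TCF7L2 to TCF7 was 1.29 ± 0.13 in control and 1.22 ± 0.13 in knockdown cells (SD, n = 3 each, exact two-sided permutation p = 0.5), and the groups overlapped. With 3 libraries in each group this test cannot give less than 0.1, so it could not settle whether the 2 genes fell unequally. A stretch of 300 exonic bases of TCF7L2 overlaps AL158212.2 on the opposite strand. Different TCF7 and TCF7L2 isoforms, some of which lack the beta-catenin binding part, cannot be told apart in gene-level values.

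**Figure D3:**
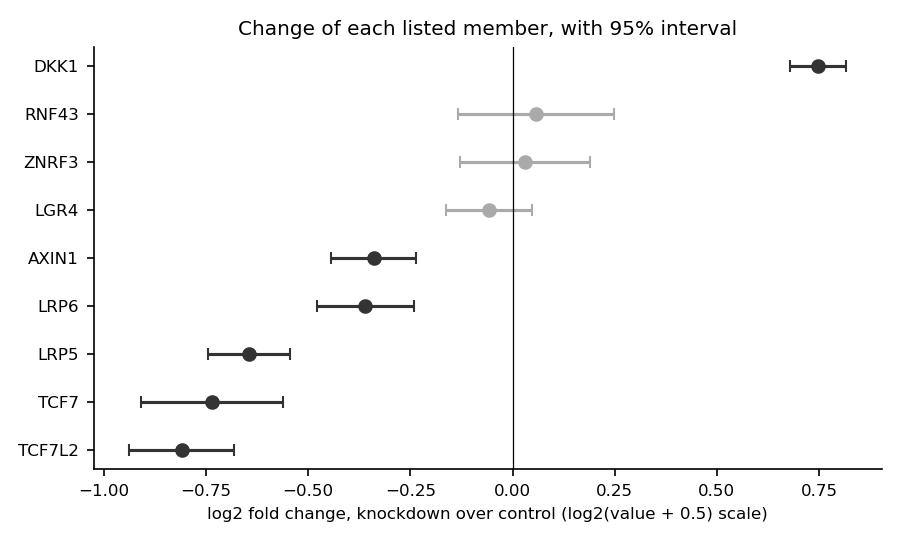
Log2 fold change of knockdown over control (horizontal axis, on the log2(value + 0.5) scale) for each listed member, with the 95% interval from limma. Dark points passed the test and grey points did not. TCF7L2 lies at -0.81 and DKK1 at 0.75, and the intervals of LGR4, RNF43 and ZNRF3 include 0.

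Levels of different genes were compared per kilobase of exon, with exon lengths from GENCODE 29. In control cells DKK1 was highest, at 205 ± 5.29 per kilobase, followed by LRP5 at 38.9 ± 1.26, AXIN1 at 15.8 ± 0.429, TCF7L2 at 13.5 ± 0.635 and LGR4 at 8.80 ± 0.177 (SD, n = 3 each). TCF7 (5.75 ± 0.550), LRP6 (4.74 ± 0.127), ZNRF3 (3.10 ± 0.0853) and RNF43 (1.71 ± 0.102) were the lowest per kilobase (SD, n = 3 each). No neighbours in this order overlapped between their control libraries. In knockdown cells TCF7L2, at 7.67 ± 0.558 per kilobase, lay below LGR4, at 8.46 ± 0.182, and the libraries of these 2 genes did not overlap. TCF7, at 3.40 ± 0.182 per kilobase, overlapped LRP6 above it (3.69 ± 0.206) and ZNRF3 below it (3.18 ± 0.294; SD, n = 3 each). DKK1 reached 344 ± 7.52 per kilobase and LRP5 was at 24.9 ± 1.81 (SD, n = 3 each). These orders depend on the exon lengths used, since the union of exons counts bases that a given isoform may lack.

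The other genes of the pathway were taken from 6 lists by role, which hold 108 genes, of which 65 had a row. Of these 65 genes, 14 rose, 34 fell and 17 did not pass the test. Their median log2 fold change was -0.12. The shares were 21.5% higher and 52.3% lower, beside 33.0% and 27.8% of all listed genes. These counts and shares include TNFRSF19, among the 14 that rose, and FZD1, which was not called. No control library of either gene reached the 150 estimated reads that every listed gene has in its highest library. Both therefore have a row only through knockdown libraries. FZD1 was added after its value was seen. Because the lists were chosen with earlier results of these data known, these shares are a description and not an independent test. Without knockdown replicate 3, 14 rose and 32 fell. The paragraphs by role give 28 called genes of these lists, of which 12 were not called against a fold of 1.2: WNT9A, FZD6, FZD8, TPBG, KREMEN1, GSK3A, AMER1, APC, TLE5, TLE1, TLE3 and EPHB2.

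Among Wnt ligands and the proteins that secrete them, 9 of 26 genes had a row. Of these, 2 rose (22.2%), 4 fell (44.4%) and 3 were not called, beside 33.0% higher and 27.8% lower over all listed genes. PORCN, the acyltransferase that attaches the lipid Wnt proteins need for secretion, had a signal of 22.5 ± 0.723 in control and 34.6 ± 1.61 in knockdown cells (SD, n = 3 each), a 1.54-fold rise. WNT9A rose 1.25-fold. The ligand genes WNT10B, WNT7B and WNT5A were 1.75-fold, 1.66-fold and 1.42-fold lower. WNT7B fell from 86.8 ± 1.54 to 52.3 ± 1.33 (SD, n = 3 each; log2 fold change -0.73, SE 0.04, limma adjusted p = 7.07e-10).

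Of 16 further receptor genes 11 had a row. Among them 2 rose (18.2%), 6 fell (54.5%) and 3 were not called, beside 33.0% higher and 27.8% lower over all listed genes. FZD4, a Frizzled receptor that also binds the non-Wnt ligand Norrin, had the largest change in any of the lists. Its signal was 82.4, 83.3 and 79.9 in control and 21.6, 23.6 and 22.6 in knockdown libraries, a 3.62-fold decrease with no overlap (log2 fold change -1.84, SE 0.05, limma adjusted p = 4.65e-14). FZD7 and FZD5 were 1.94-fold and 1.57-fold lower. FZD6 and FZD8 rose 1.24-fold each, so the Frizzled genes did not move in 1 direction. Of 15 further antagonist genes only 3 had a row. From this short list 1 rose (33.3%) and 2 fell (66.7%), beside 33.0% higher and 27.8% lower over all listed genes. TPBG rose 1.13-fold, and KREMEN2 and KREMEN1, which encode receptors that act with DKK1 on LRP6, were 1.69-fold and 1.30-fold lower.

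Within the destruction complex and its relay, 18 of 21 genes had a row. Here 2 rose (11.1%), 10 fell (55.6%) and 6 were not called, beside 33.0% higher and 27.8% lower over all listed genes. CTNNB1, which encodes beta-catenin, rose 1.35-fold, from 309.6 ± 9.82 to 416 ± 15.4 (SD, n = 3 each; log2 fold change 0.43, SE 0.04, limma adjusted p = 3.89e-08). The kinase gene GSK3A rose 1.13-fold. AMER1, CSNK1G3 and APC, which encode a membrane adaptor of APC, a casein kinase and the tumour suppressor that holds the complex together, were 1.37-fold, 1.37-fold and 1.30-fold lower.

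Of 15 nuclear partners of the TCF factors 12 had a row. In this list 1 rose (8.33%), 7 fell (58.3%) and 4 were not called, beside 33.0% higher and 27.8% lower over all listed genes. TLE2, a Groucho co-repressor gene, fell 2.89-fold, with 19.6, 19.2 and 18.8 in control and 7.20, 7.31 and 5.45 in knockdown libraries (log2 fold change -1.48, SE 0.11, limma adjusted p = 5.60e-09). The related genes TLE1 and TLE3 were 1.26-fold and 1.21-fold lower, and TLE5, which encodes a short member of this family, rose 1.10-fold. TCF7L1, a further TCF gene, had a log2 fold change of -0.16 and was not called (limma adjusted p = 0.348), and LEF1 was not analysed here. TCF7L1 was added after its value was seen.

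Of 15 genes described as beta-catenin targets 12 had a row, of which 6 rose, 5 fell and 1 was not called. The called share was 91.7%, beside 60.9% of all listed genes. Of all listed genes 33.0% were higher and 27.8% lower, so that calls in both directions are common in these libraries. MYC, a growth-promoting transcription factor gene, fell 2.36-fold, from 575 ± 6.74 to 243 ± 10.3 (SD, n = 3 each; log2 fold change -1.24, SE 0.03, limma adjusted p = 3.24e-14). CEMIP and BAMBI were 1.92-fold and 1.49-fold lower. TNFRSF19 rose 2.28-fold from a low signal of 2.54 ± 0.283 (SD, n = 3). Every listed gene held at least 150 estimated reads in its highest library, and no control library of TNFRSF19 reached that. This gene therefore has a row only through its knockdown libraries. It is counted among the 6 that rose, and its rise is given as a description only. The adhesion receptor gene CD44 and the Eph receptor gene EPHB2 rose 1.32-fold and 1.25-fold.

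For each called member, the 3 genes of the role lists with the most similar log2 signal over the 6 libraries were taken as a description. Because there are only 2 groups, a high Pearson correlation mostly restates a group difference in the same direction. DKK1 was closest to CD44 (r = 0.992), CTNNB1 (r = 0.992) and PORCN (r = 0.985). TCF7L2 was closest to TLE3 (r = 0.998), TLE2 (r = 0.991) and MYC (r = 0.989), and TCF7 to CTBP2 (r = 0.991), PYGO2 (r = 0.975) and ROR1 (r = 0.975). LRP5 was closest to TLE3 (r = 0.996), FZD5 (r = 0.995) and KREMEN2 (r = 0.992). LRP6 was closest to TGIF2 (r = 0.989), WNT5A (r = 0.986) and CHD8 (r = 0.985), and AXIN1 to FZD5 (r = 0.993), WNT7B (r = 0.990) and TLE2 (r = 0.989). All of these values are over 6 libraries that share their processing.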

How the data were processed

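RNA sequencing libraries of PC3 cells, 3 with control shRNA and 3 with shRNA against VprBP, were made with a SMARTer mRNA-seq kit, per the labels' protocols. The deposited table is named raw counts but holds a scaled signal per gene and library, and the sources used here do not give the authors' scaling method, aligner, quantifier or strand setting. Partek and hg38 are named in the submitters' processing notes. The values themselves showed the scaling: their 75th percentile was 78.99 to 79.02 in every library, and 55.3% to 64.8% of values were whole multiples, within 0.02 reads, of the value of 1 read, so whole reads could not be recovered. The value of 1 read gave the estimated reads. A count model, one of the planned tests, was therefore not used. The highest library of every listed gene held at least 150.0 estimated reads. The end coordinate was reduced by 1, after which 6951 of 12001 ends equalled GENCODE 29, compared with 153 as deposited.

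All 12227 genes were fitted in limma 3.58.1 (R 4.3.3) on log2(value + 0.5), the prior variance following the mean level, and p-values were two-sided and adjusted by Benjamini-Hochberg over all genes. The fit was also run on simulated data whose spread came from the same fit and in which far fewer genes changed than were called here. That run could not show how the fit behaves where most genes are called. This scale understates the change of low genes. Plain folds divide 1 group's mean deposited signal by the other's. The members and lists were chosen with earlier results of these data known. Besides the members and DCAF1, genes named are, for each role list, up to 3 called genes in each direction with the largest change and a mean of at least 1, the 3 genes most like each called member, and markers. The alternatives tried were a replicate block, scaling by median ratio or by library size, pseudocounts of 0.1 and 1, only genes with a mean of 5 or more, limma-voom on the estimated reads, a test against a fold of 1.2, and leaving out each library. A list of prostate markers is not reported here.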

Additional observations from a re-analysis of the deposited data

How the results depend on the processing

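The 6 calls among the members, DKK1 as higher and LRP5, LRP6, AXIN1, TCF7 and TCF7L2 as lower, were the same genes in 13 of 14 alternatives. Against a fold of 1.2, 4 of 9 members, 17 of the 65 other pathway genes (4 higher, 13 lower) and 2331 of the 12227 listed genes (19.1%) were called. The test against no change called 6 members, 48 pathway genes (73.8%) and 7441 listed genes (60.9%). The split by direction over all listed genes depended on the scaling. It was 4037 higher and 3404 lower as deposited, 3723 and 3717 with median-ratio scaling, and 3751 and 3681 with library-size scaling. For the pathway genes it was 14 and 34 as deposited, and 12 and 34 with either scaling. With 1 library left out in turn, 43 to 46 pathway genes and 6697 to 7405 listed genes were called. DCAF1 stayed lower and called in all 14 alternatives. ZNRF3, which was not called, had a log2 fold change from -0.042 to 0.081 with 1 library left out, with the reversed sign without knockdown replicate 2. Its ratio to RNF43 changed by -0.16 to 0.066 on the log2 scale, and the sign turned without control replicate 1, knockdown replicate 1 or knockdown replicate 3. The ratio of TCF7L2 to TCF7 changed by -0.15 to -0.00047. The cause of these shifts was not tested. With the replicate block, 6 members, 44 pathway genes and 7042 listed genes were called. Libraries with the same number had correlations of 0.03, -0.18 and -0.17 between their deviations from the group means. Of the libraries, 0 of 6 matched best with its own number, so no pairing by number was seen. So few libraries cannot exclude a pairing. A ratio of AXIN2 to AXIN1 was planned and could not be fitted, since AXIN2 was not analysed here. Depth limits RNF43 most: at 292 estimated reads counting error alone is 5.85%.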
